A study of Mus musculus with 6 samples.

Results

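The genes described here encode 5 proteins of the protein folding and quality control machinery: Hspb8, Stub1, Clgn, Hspa8 and Hspa5. They were chosen by name, with the peaks that earlier work on these data had found near them already known. The measured values used in the choice were the presence and score of a peak assigned to the gene, so both are given as a description. All peaks that the authors assigned to these genes were taken at any distance. This gave 13 of 16057 peaks, at 4 of the 5 genes, and Hspa5 had none. In all, 8030 genes had an assigned peak.

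The study mapped sites of NRF2 (gene Nfe2l2), a transcription factor of the antioxidant response, by chromatin immunoprecipitation and sequencing. Mouse embryonic fibroblasts of strain 129S6/SvEvTac either lacked the amino acid sensing kinase GCN2 (GCN2-/-, here GCN2 KO) or were wild type (WT). For 24 h they were kept in DMEM without leucine or in complete DMEM. The 4 peak lists come from 1 library per condition: GCN2 KO had 4600 peaks without leucine and 3141 in complete medium, and WT had 5980 without leucine and 2336 in complete medium. All 4 were called against an input from complete medium, also those without leucine.

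With single libraries, nothing below has replicates or a p-value. Read depth is unknown, and a site that is missing from a list may still bind NRF2 below the threshold used. Peak lists measure no expression, so they check neither the cell type nor the knockout. Peaks are described by rank within a list, where rank 1 is the highest of the authors' scores and equal scores share their mean rank. A rank in a long list and one in a short list are not a measure of change. Coordinates are mm10.

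Chaperones help proteins fold and hold unfolded ones in solution, and a part of the system passes damaged proteins on for destruction. Hspa8 is the constitutive cytosolic Hsp70 (Hsc70), and Hspa5 (BiP) is its counterpart in the endoplasmic reticulum (ER). Stub1 (CHIP) is a ubiquitin ligase that binds Hsp70 and Hsp90 and marks their clients. Hspb8 is a small heat shock protein that works with the co-chaperone Bag3, Hspa8 and Stub1 to send aggregated proteins to autophagy. Clgn (calmegin) is a relative of the ER lectin chaperone calnexin, best known from developing sperm cells. NRF2 binds, with a small Maf protein, to antioxidant response elements near genes of stress defence.

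Of the 5 genes, 4 had an assigned peak in the GCN2 KO list without leucine, 4 in the GCN2 KO list of complete medium, 2 in the WT list without leucine and 1 in the WT list of complete medium. Over all 21900 protein-coding genes the shares with a peak were 13.5, 9.89, 17.3 and 7.93% in that order of lists, and since presence chose the members nothing is read from the contrast. Hspb8, Stub1, Clgn and Hspa8 were the genes in both KO lists, Hspb8 and Clgn those of WT without leucine, and Hspb8 that of WT in complete medium. Within 10 kb of the transcription start site (TSS) the numbers were 3, 3, 2 and 0 in the same order of lists, where the shares of protein-coding genes were 4.03, 3.03, 6.17 and 2.28%. The peaks merged into 9 separate regions when windows that shared at least 1 bp were joined. A single list held 7 of these regions, and 2 were in 3 lists. Among all 14390 regions of the series 93.5% were in a single list and 1.45% in 3 lists.

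Hspb8 carried the most peaks, 6 of the 13. The site that recurred lay in intron 1 of 2, inside the gene. The GCN2 KO list without leucine had it at chr5:116420986-116421286, 1728 bp from the TSS, with rank 231.5 of 4600. The GCN2 KO list of complete medium had it at chr5:116421007-116421307, 1707 bp from the TSS, with rank 256 of 3141. The WT list without leucine had it at chr5:116421031-116421331, 1683 bp from the TSS, with rank 158.5 of 5980. The 3 window centres lay within 45 bp of each other, so these peaks mark 1 site. A score at least as high was held by 5.09% of the KO list without leucine, 8.34% of the KO list in complete medium and 2.66% of the WT list without leucine, which puts the site among the strong peaks of all 3 lists. The WT list in complete medium had no peak there.

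The other Hspb8 peaks were weaker and each was in 1 list. WT cells without leucine had a pair of further peaks in intron 1. That at 3363 bp from the TSS, with rank 3013 of 5980, had the median score of the list, 30, which 913 peaks shared. That at 5252 bp, with rank 5174, lay below the middle of the list. WT cells in complete medium had their single Hspb8 peak at chr5:116408733-116409033, in the 3′ UTR of exon 3 of 3, 13981 bp from the TSS, with rank 895.5 of 2336. That window and the farthest intron peak also lay inside Gm36841, a long noncoding RNA gene at 116406680 to 116418761. Hspb8 was therefore counted as having a peak in all 4 lists, although the WT list in complete medium shared no site with the others. The nearest of the recurrent windows ended 1483 bp short of the promoter window of the RefSeq table, which spans 250 bases before to 50 after the start. No peak overlapped the Hspb8 promoter window. The recurrent windows had 0.00333 CpG per base in all 3 lists, against a list median of 0.0133, and a GC fraction of 0.532 in the KO list without leucine (list median 0.518), 0.505 in that of complete medium (0.522) and 0.458 in the WT list without leucine (0.520).

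**Figure D1:**
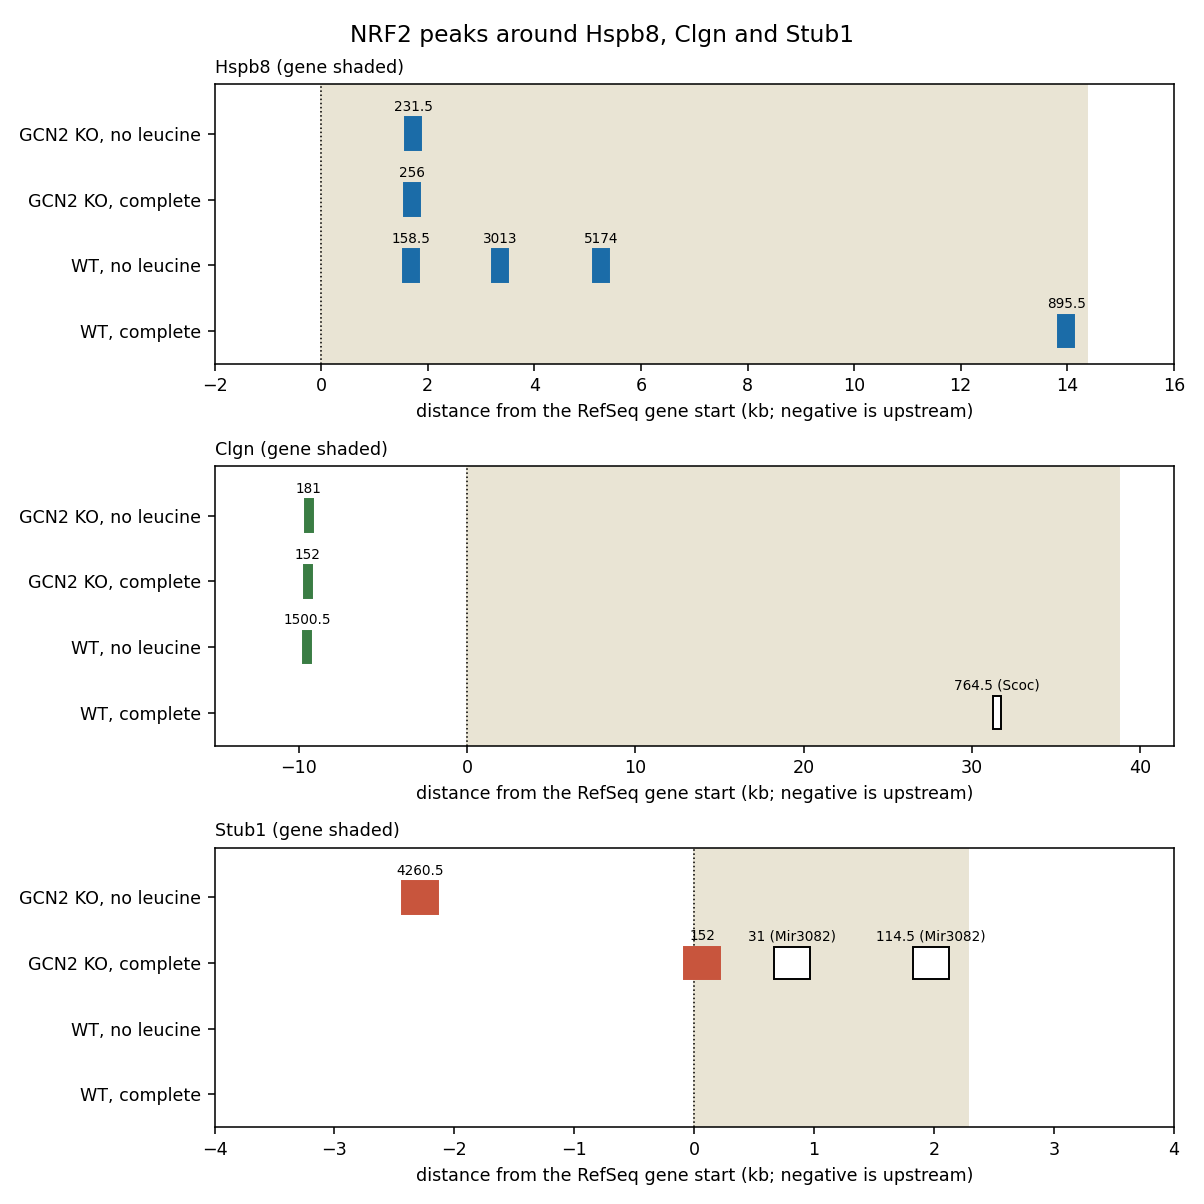
NRF2 peaks around Hspb8, Clgn and Stub1 by distance from the RefSeq gene start (kb, horizontal) in each of the 4 lists (rows). Filled boxes are peaks assigned to the gene and open boxes are peaks assigned to the gene in brackets, numbers are ranks within the list, shading is the gene body, and boxes in the Clgn panel are drawn wider than the 301 bp windows. The Hspb8 intron site and the Clgn upstream site stand in the same 3 lists, and all 3 peaks inside Stub1 are from GCN2 KO cells in complete medium.

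Clgn had 1 upstream site, in the same 3 lists as the Hspb8 intron site. Its GCN2 KO window without leucine was chr8:83380229-83380529, at -9512 bp from the TSS, with rank 181 of 4600. Its GCN2 KO window in complete medium was chr8:83380172-83380472, at -9569 bp, with rank 152 of 3141. Its WT window without leucine was chr8:83380150-83380450, at -9591 bp, with rank 1500.5 of 5980. The window centres lay within 79 bp of each other. Scores at least as high were held by 4.0% and 4.90% of the KO lists without and with leucine, and by 25.2% of the WT list without leucine, so the site stood near the top of both KO lists and in the upper part of the WT list. The authors annotated it to a transcript end of Mgat4d, a gene whose RefSeq body ends at 83379402. The site thus lay just past the end of Mgat4d and upstream of Clgn, and the authors' annotation gave it to Clgn. The RefSeq table holds a further gene between the site and Clgn, the long noncoding RNA gene Gm32377 at 83381469 to 83389489. Both of its ends lie nearer to the site than the Clgn start at 83389790, so by that table Clgn was not the nearest gene. The WT list in complete medium held a peak inside the Clgn gene, at chr8:83421140-83421440 in intron 10 of 14 within a LINE repeat, with rank 764.5 of 2336. It was assigned to Scoc, the next gene, and so is missing from the count for Clgn.

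The 3-list pattern of Hspb8 and Clgn, present everywhere but in WT cells in complete medium, was held by 51 of all 14390 regions (0.354%). The pattern was taken from the Hspb8 and Clgn sites themselves, which are among the 51, so nothing is read from its rarity. Among the higher-scoring 10% of peaks it was held by 5.39% in GCN2 KO without leucine, 6.13% in GCN2 KO in complete medium and 4.97% in WT without leucine. Sites in all 4 lists made up 46.1%, 58.1% and 38.4% of the same peaks. The WT list in complete medium was the shortest of the 4, and whether the missing peaks follow from depth was not tested.

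Stub1 differed from Hspb8 and Clgn in that its strong peaks were in 1 list. In GCN2 KO cells in complete medium the assigned peak was at chr17:25832701-25833001, in exon 1 of 7, with rank 152 of 3141. The same list held a further pair of peaks in the Stub1 gene body that were assigned to Mir3082, a microRNA gene at 25831365 to 25831428 that lies inside Stub1. The first of them, at chr17:25831954-25832254, had rank 31 and the second, at chr17:25830797-25831097, had rank 114.5. From the first base to the last the 3 peaks spanned 2205 bp. Most of this lay in the Stub1 gene, which is 2286 bp long, and the exon 1 window also reached upstream of the RefSeq start. The second Mir3082 peak also lay within Jmjd8, a gene that overlaps Stub1 and runs from 25829043 to 25831843. Counted by the assigned gene alone, Stub1 shows 1 of these peaks. The span of 2205 bp and the number of 3 were taken from these same peaks, and no other span was tried. At that span this was the only place in that list where 3 peaks fell together. There were 4 such places in WT without leucine, and 0 in GCN2 KO without leucine and in WT in complete medium. None of the 3 Stub1 sites was in another list. Of the 310 peaks in the higher-scoring 10% of the GCN2 KO list in complete medium, 44 (14.2%) were likewise in 1 list.

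In GCN2 KO cells without leucine Stub1 had a peak of rank 4260.5 of 4600, at chr17:25835052-25835352. It lay in intron 6 of 7 of Rhbdl1, the neighbouring gene, at -1841 bp from the Stub1 TSS. It was near the bottom of the list, where 95.8% of peaks scored at least as high, and it shared no base with the exon 1 window. Its GC fraction of 0.621 was high, at percentile 98.4 of that list, while its CpG content of 0.0133 per base was that of the list median. The gene-level entry of Stub1 in both KO lists thus rests on different sites. The WT lists had no peak in Stub1. The closest WT peaks were 44893 bp downstream of the Stub1 start without leucine, assigned to Ccdc78, and at -79123 bp in complete medium, assigned to Rab40c.

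The Stub1 exon 1 window was rich in G and C. Its GC fraction was 0.714 and its CpG content 0.123 per base, each at percentile 99.7 of its list, where the medians were 0.522 and 0.0133. In the authors' annotation the window centre lay 510 bp downstream of the TSS. RefSeq's GRCm38.p6 table starts the gene 442 bp further in, which puts the centre 68 bp from the start. The window covered 132 of the 300 bases of the RefSeq promoter window of Stub1, at chr17:25832870-25833169 on the minus strand. That sequence, from RefSeq for GRCm38.p6, the assembly of mm10, is shown because it is the only member promoter that a peak reached. It is written 5′ to 3′, with the bases inside the peak window in capitals.

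Stub1 promoter: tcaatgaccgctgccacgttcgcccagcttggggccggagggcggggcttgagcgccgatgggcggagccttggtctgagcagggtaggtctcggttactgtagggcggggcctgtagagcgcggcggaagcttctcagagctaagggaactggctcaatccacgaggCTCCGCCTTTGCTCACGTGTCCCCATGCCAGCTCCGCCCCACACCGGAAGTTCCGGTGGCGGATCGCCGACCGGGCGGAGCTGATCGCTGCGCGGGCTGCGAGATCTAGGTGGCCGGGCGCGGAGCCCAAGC

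Motifs were searched on both strands. The antioxidant response element core TGACNNNGC, where N is any base, was not in the Stub1 promoter window, and neither was the wider form TGANNNNGC or the AP-1 motif TGANTCA. These letters occurred in 12.4%, 41.3% and 7.81% of 32841 promoter windows of the same length. A pair of heat shock element units, GAANNTTC or TTCNNGAA, was found at -123 relative to the start, outside the peak window, and such a pair was in 15.1% of promoters. The Hspb8 promoter window likewise held a heat shock element pair, beginning at position 3 where the first base of the gene is 1, and no match to the other motifs. No genome of this build was used here, so the peak windows beyond the promoter table were not searched.

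Hspa8 had a distant peak in each KO list and none in the WT lists. Without leucine it was at chr9:40764867-40765167, at -36256 bp from the TSS, with rank 620 of 4600. With complete medium it was at chr9:40772360-40772660, at -28763 bp, with rank 401.5 of 3141. These were different sites. Both lay inside Clmp, a cell adhesion gene that runs from 40682123 to 40785553, that of the list without leucine in intron 2 of 6 within a B2 SINE repeat and that of the complete-medium list in exon 4 of 7. The exon 4 window had 0.0433 CpG per base, at percentile 97.2 of its list, and a GC fraction of 0.528, at percentile 60.5. WT cells in complete medium had a pair of peaks assigned to Clmp itself, at -59257 and -90375 bp from the Hspa8 start, with ranks 1374.5 and 2052.5 of 2336. No list held a peak in the Hspa8 gene, and in WT cells without leucine the nearest lay at -533127 bp, at Scn3b.

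Hspa5 had no assigned peak and no peak of any gene within 50 kb of its start in any list. The nearest peak was the same in all 4 lists, a site in intron 1 of 9 of Psmd5, which encodes an assembly factor of the proteasome. It lay 97716 bp from the Hspa5 start in the GCN2 KO list without leucine (rank 156) and 97694 bp in that of complete medium (rank 222). For WT it lay 97717 bp away without leucine (rank 258.5) and 97679 bp in complete medium (rank 112.5). In each list it was among the strong peaks, with between 3.48 and 7.32% of the list scoring at least as high.

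**Figure D2:**
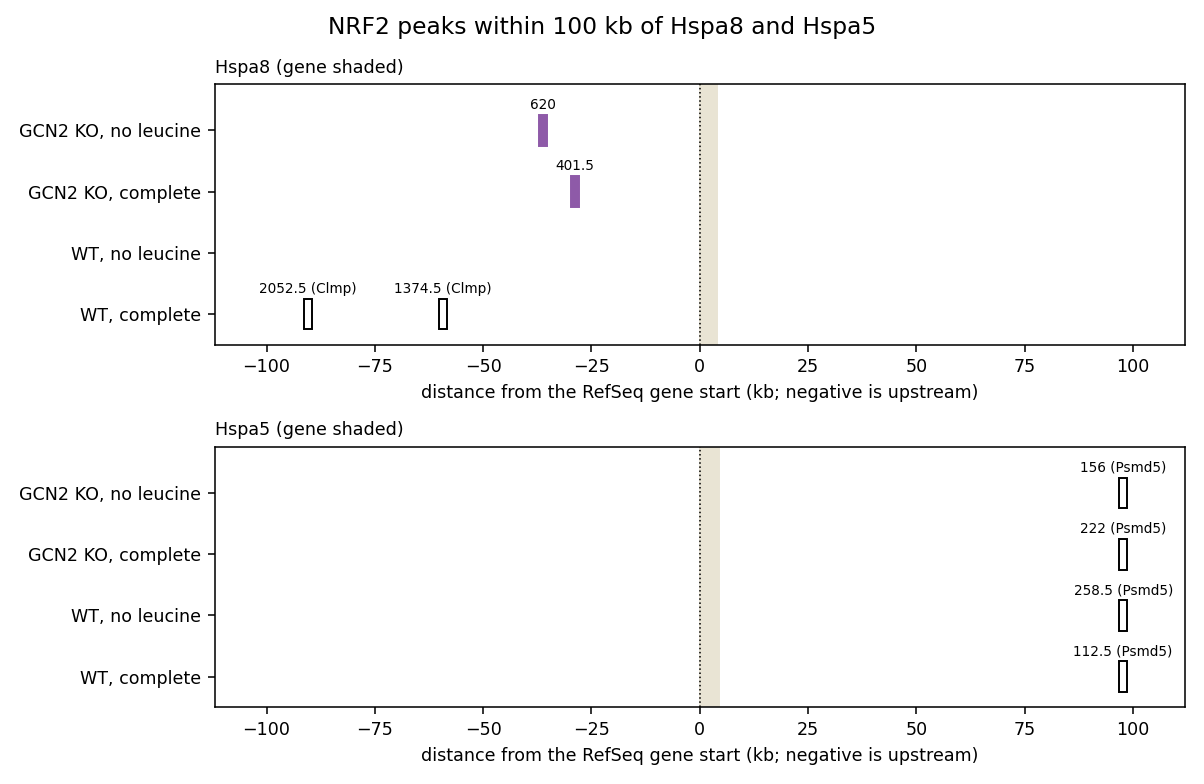
NRF2 peaks within 100 kb of the start of the Hsp70 genes Hspa8 and Hspa5 (distance in kb, horizontal) in the 4 lists (rows). Filled boxes are peaks assigned to Hspa8, open boxes are peaks assigned to the gene in brackets, numbers are ranks within the list, shading is the gene, and boxes are drawn wider than the windows. Hspa8 has 1 distant peak in each KO list at different places, and the peaks nearest to Hspa5 are those of Psmd5 in all 4 lists.

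The Hspa5 promoter is shown because it holds the letters of several stress elements while no list held a peak there. The window is chr2:34771840-34772139 on the plus strand, from RefSeq for GRCm38.p6. Capitals mark TGAGTCAGC at -182, which matches the wider antioxidant response element core and contains the AP-1 motif, then a reverse-strand match to the wider core at -74, followed without a gap by the ER stress element at -65.

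Hspa5 promoter: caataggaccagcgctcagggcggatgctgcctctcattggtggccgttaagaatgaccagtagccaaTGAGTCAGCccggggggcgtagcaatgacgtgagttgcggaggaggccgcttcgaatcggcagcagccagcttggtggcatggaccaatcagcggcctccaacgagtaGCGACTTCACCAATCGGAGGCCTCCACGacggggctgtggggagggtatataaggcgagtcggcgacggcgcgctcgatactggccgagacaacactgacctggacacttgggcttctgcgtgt

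The ER stress element, the recognition sequence of factors that switch on ER chaperone genes, was in 39 of 32841 promoters (0.119%). The other letters are more common, with the wider antioxidant response element core in 41.3% and the AP-1 motif in 7.81% of these promoters. TGACNNNGC was not in the window. A match to letters is no evidence of binding, and the absence of a peak applies to these cells, this antibody and the authors' threshold.

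**Figure D3:**
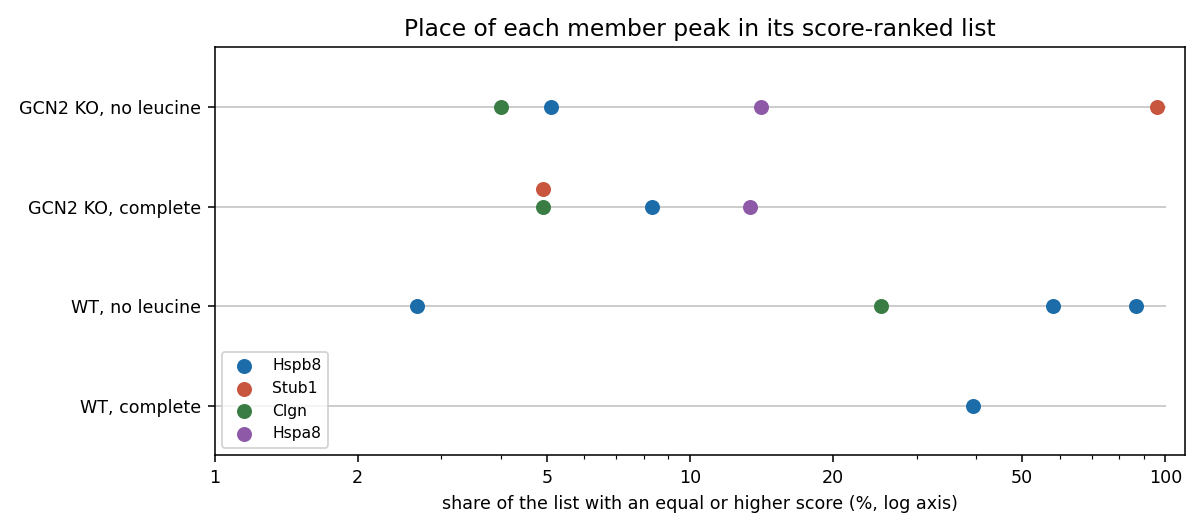
Share of each list with an equal or higher score (%, log axis; left is stronger) for the 13 peaks assigned to Hspb8, Stub1, Clgn and Hspa8, 1 row per list. The peaks lie between 4.0 and 95.8% in GCN2 KO without leucine, 4.90 and 13.4% in GCN2 KO in complete medium, 2.66 and 86.7% in WT without leucine, and at 39.3% in WT in complete medium.

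By score, 6 of the 13 peaks lay in the higher-scoring 10% of their list and 10 in the higher-scoring 50%. The 6 were the Hspb8 intron site in all 3 lists, the Clgn site in both KO lists and the Stub1 exon 1 peak. All 4 peaks of the GCN2 KO list in complete medium were in the upper part of that list, while those of the GCN2 KO list without leucine and of the WT list without leucine spread from near the top to near the bottom. By position, 7 windows were annotated to introns, 3 to a transcript end, 2 to exons and 1 to a 3′ UTR. Introns held between 40.9 and 44.6% of all peaks of a list, transcript ends between 1.47 and 1.99% and exons between 4.32 and 5.44%. The 3 windows at a transcript end are the single Clgn site, counted in 3 lists. In the same way, 3 of the 7 intron windows are the single recurrent Hspb8 site. The annotated transcript belonged to another gene than the member in 6 of the 13, namely 3 windows at Mgat4d for Clgn, 2 at Clmp for Hspa8 and 1 at Rhbdl1 for Stub1. The window centre was within the member's own gene in 7 of the 13. Within 1 kb of the TSS there was 1 peak, that of Stub1 exon 1. For the 3′ UTR, another gene's transcript, the member's own gene and the 1 kb limit, no share over all peaks is given. Those counts are a description only, and whether they are usual for a list was not tested.

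Leucine withdrawal in GCN2 KO cells was described first. No member was in the list without leucine alone or in the complete-medium list alone. All 4 members with a peak in either list were in both, and Hspa5 was in neither. Among the 4991 genes with a peak in either KO list, 48.2% had a peak without leucine alone and 29.3% in the complete-medium list alone. The other 22.5% had a peak in both lists. The shared entries rested on the same site for Hspb8 and Clgn and on different sites for Stub1 and Hspa8. In WT cells Clgn was in the list without leucine alone, Hspb8 was in both and no member was in the complete-medium list alone. Of the 5463 genes in either WT list, 62.2% had a peak without leucine alone and 17.9% in the complete-medium list alone. The other 19.9% had a peak in both WT lists.

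GCN2 KO cells were then set against WT cells. Without leucine, Stub1 and Hspa8 were in the KO list alone, Hspb8 and Clgn were in both and no member was in the WT list alone. Of 6406 genes in either list, 30.0% were in the KO list alone, 44.9% in the WT list alone and 25.1% in both. In complete medium, Stub1, Clgn and Hspa8 were in the KO list alone, Hspb8 was in both, at different sites, and no member was in the WT list alone. Of 3913 genes in either list, 47.2% were in the KO list alone, 33.9% in the WT list alone and 18.9% in both. The members were listed with these peaks known, so their counts describe the choice and are not evidence of a difference between genotypes. The 4 comparisons share lists with each other.

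The rest of the chaperone system was read from 8 lists with 120 genes in all, of which 115 were not members. These covered the Hsp70 and Hsp110, Hsp90, Hsp40 and small heat shock protein families, ER folding factors, co-chaperones, chaperonins with prefoldin, and heat shock factors. A peak within 10 kb of the TSS was found for 5 of the 115 in GCN2 KO without leucine (4.35%, exact 95% interval 1.43 to 9.85), 5 in GCN2 KO in complete medium (4.35%, 1.43 to 9.85), 6 in WT without leucine (5.22%, 1.94 to 11.0) and 5 in WT in complete medium (4.35%, 1.43 to 9.85). Of 21900 protein-coding genes, 4.03, 3.03, 6.17 and 2.28% had one in the same order of lists. Leaving out the members, which were chosen with their peaks known, lowers the chaperone share in all lists but WT in complete medium. With the members included the share was 6.67, 6.67, 6.67 and 4.17% of 120. At any distance 11, 14, 18 and 8 of the 115 had a peak, which is 9.57, 12.2, 15.7 and 6.96%, where the shares of protein-coding genes were 13.5, 9.89, 17.3 and 7.93%. No difference from all genes is read from these shares.

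**Figure D4:**
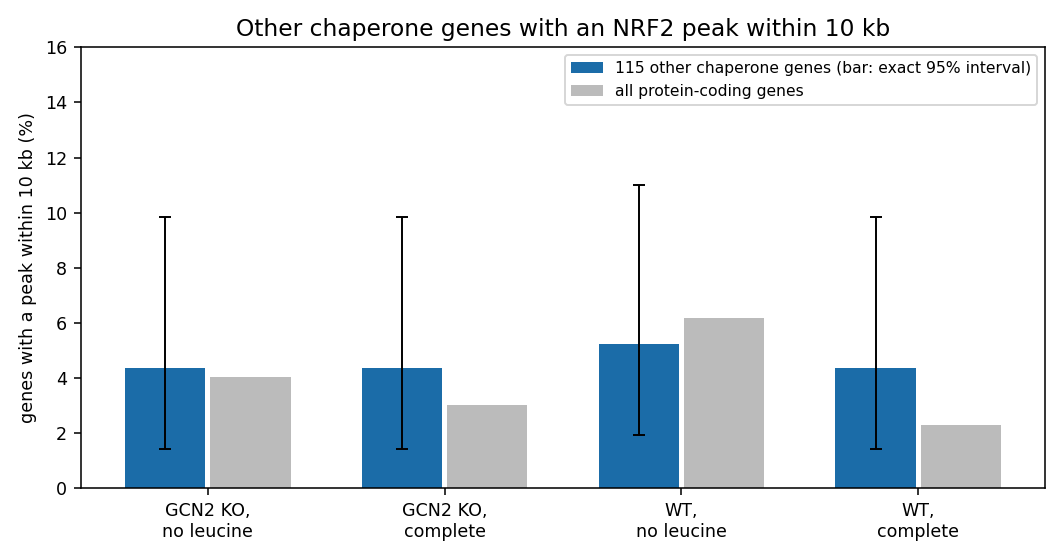
Percent of the 115 other chaperone genes (blue, with exact 95% intervals for counting error) and of 21900 protein-coding genes (grey) that had an NRF2 peak within 10 kb of the TSS, by list. The blue bars stand between 4.35 and 5.22% and the grey bars between 2.28 and 6.17%, and the 5 members are left out of the blue bars.

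Over all 4 lists, 16 of these other genes had a peak within 10 kb, 13 of them in 1 list, 2 in 2 lists and 1 in all 4. Among all 3152 genes with such a peak, 83.7% had it in 1 list and 3.08% in all 4. The gene in all 4 was Ptges3, which encodes p23, a co-chaperone that closes the Hsp90 cycle. Its promoter peak lay at -17 bp from the TSS in GCN2 KO without leucine with rank 280.5 of 4600, at 45 bp in GCN2 KO in complete medium with rank 780 of 3141, at 10 bp in WT without leucine with rank 137.5 of 5980 and at 7 bp in WT in complete medium with rank 160 of 2336. A score at least as high was held by 6.20, 25, 2.31 and 6.89% of those lists.

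The Ptges3 promoter window, chr10:128058732-128059031 on the plus strand, is shown because all 4 lists had a peak on it. Capitals mark its match to the antioxidant response element core on the reverse strand, which begins at position 8, counting the first base of the gene as 1.

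Ptges3 promoter: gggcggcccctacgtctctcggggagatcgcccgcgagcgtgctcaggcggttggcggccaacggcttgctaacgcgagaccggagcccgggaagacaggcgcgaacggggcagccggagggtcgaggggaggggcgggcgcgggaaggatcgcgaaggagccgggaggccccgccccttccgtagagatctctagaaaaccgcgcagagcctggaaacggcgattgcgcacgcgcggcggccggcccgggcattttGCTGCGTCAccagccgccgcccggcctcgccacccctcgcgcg

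The match fell inside the peak window in all 4 lists. It began at 24 bp from the window centre in GCN2 KO without leucine, at -38 bp in GCN2 KO in complete medium, at -3 bp in WT without leucine and at 0 bp in WT in complete medium. Of the 3 member promoters in the table, those of Hspb8, Stub1 and Hspa5, none held this core, which was in 12.4% of all promoters. The wider core had 2 matches in the Ptges3 window and 2 in that of Hspa5, where no list had a peak.

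The remaining chaperone genes with a peak within 10 kb were of several families. Hsp90ab1, the constitutive cytosolic Hsp90, had a peak in intron 1 in both WT lists, at 444 bp from the TSS without leucine (rank 1800 of 5980) and at 361 bp in complete medium (rank 639 of 2336), and in neither KO list. Hspb1, a small heat shock protein like Hspb8, had one in GCN2 KO without leucine at 3307 bp and one in WT without leucine at 1081 bp, which were different sites. In the GCN2 KO list without leucine alone were Fkbp5, an Hsp90-binding isomerase, with rank 480 of 4600 at -7147 bp, Pdia6, a disulfide isomerase of the ER, and Hsf5. In the GCN2 KO list in complete medium alone were Hspa9, the mitochondrial Hsp70, Creld2 and Uggt1 of the ER, and Bag6. In WT without leucine alone were Trap1, the mitochondrial Hsp90, Dnajb2 and Dnajc2, and in WT in complete medium alone Hspa2, Dnajc6 and Pfdn4. Fkbp5 also had a more distant peak in both WT lists, in intron 1 at 38102 bp without leucine (rank 794 of 5980) and at 38145 bp in complete medium (rank 215 of 2336). Pfdn4 had more distant peaks in both KO lists, at -16584 bp without leucine (rank 4260.5 of 4600) and at -26688 bp in complete medium (rank 721 of 3141). Bag3, the partner of Hspb8, was looked up after the lists had been seen. It had no peak within 10 kb, and a site in an LTR repeat at -28906 bp in GCN2 KO in complete medium (rank 1413 of 3141) and at -28829 bp in WT without leucine (rank 716.5 of 5980).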

How the data were processed

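Reads of NRF2 immunoprecipitates were single and 50 bp long, per the labels' protocols. BWA 0.7.12, MACS2 2.1.0 and HOMER 4.7 on mm10 are named in the submitters' processing notes, without settings. Each library was called separately against the complete-medium input of its genotype, per the file headers. Scores, whole numbers of at least 13, are the peak score deposited by the authors, and no source used here names the caller column behind it. GC and CpG content are a fraction of the window, deposited by the authors. Distance to the TSS and annotation are those of HOMER, per the file headers. Windows measured 301 bp with both ends counted.

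Peaks were taken by assigned gene name, ranked within lists and merged across lists at 1 bp of overlap with Python 3.11.15 and pandas 2.3.3. Merging and motif search were checked on simulated windows. Genes were counted by Entrez identifier against the GRCm38.p6 RefSeq table. Promoter sequences were matched by symbol for 3 of the 5 members. Genes named were the members, genes of the chaperone lists with a peak within 10 kb, and genes assigned a peak within 50 kb of a member. Beyond these, genes were named that overlapped or neighboured a member or its peak, or were assigned a more distant peak near a member. Bag3 was named as the partner of Hspb8. The members and lists were chosen with earlier results of these data known. A further list and a few genes inside the naming rule are left out. The 2 input samples were not used here. Intervals are exact Clopper-Pearson intervals at 95% and cover counting error only. Alternatives changed the score threshold, list length, repeats, distance limit, overlap rule and motif.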

Additional observations from a re-analysis of the deposited data

How the results depend on the processing

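No paired analysis was possible because each condition had 1 library. The Hspb8 intron site and the Clgn upstream site were in 3 lists under each of 3 other overlap rules (reciprocal overlap of 50%, centres within 100 bp, windows widened by 500 bp). With window centres within 45 bp (Hspb8) and 79 bp (Clgn) of each other, the reciprocal and centre rules could not drop a list. WT in complete medium had no peak near enough for the widening to add, so these rules were no further check. Member counts depended on the distance limit. Up to 1 kb they were 0 in GCN2 KO without leucine, 1 in GCN2 KO in complete medium, 0 in WT without leucine and 0 in WT in complete medium. The last was 0 up to 10 kb and 1 up to 50 kb. In the higher-scoring 50% of each list and at equal list lengths of 2336 peaks, 1 member was in the GCN2 KO list with complete medium alone against that without leucine, and 1 in the KO list alone against WT without leucine. The KO count against WT without leucine was 0 up to 1 kb and 1 up to 10 kb. Up to 1 kb, 1 member was in the KO list of complete medium alone against KO without leucine and against WT in complete medium. Members in WT without leucine alone against complete medium were 0 up to 1 kb and 2 up to 10 kb.

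The percent of genes in 1 list of a comparison alone moved beyond its counting interval as follows. For leucine withdrawal in GCN2 KO (77.5%) it was 80.9% in the higher-scoring 50%, 80.0% at equal lengths, and 89.2, 88.0 and 83.2% up to 1, 10 and 50 kb. For leucine withdrawal in WT (80.1%) it was 79.0% at equal lengths and 88.6, 89.0 and 85.1% at those distances. For KO against WT without leucine (74.9%) it was 79.8% in the higher-scoring 50%, 79.6% at equal lengths, and 93.0, 90.2 and 82.1%. In complete medium (81.1%) it was 86.6, 88.1 and 85.9%.

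Chaperone genes with a peak within 10 kb, members included, numbered 8, 8, 8 and 5 in the order GCN2 KO without and with leucine, WT without and with leucine, and 15, 18, 20 and 9 at any distance. They were 5 in GCN2 KO in complete medium and 5 in WT without leucine in the higher-scoring 50%, and 5 in WT without leucine at equal lengths. With the wider antioxidant response element core, 1 member promoter had a match against 0. The cause of these shifts was not tested. Motif search in widened windows was not run, since it needs a genome. Of 139 alternative values 95 stayed within 1.5 times the main count or its interval. The 95 include counts that were 0 both in the main setting and in the alternative. Read depth is unknown, so presence in a list cannot be set against it.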
